A study of Homo sapiens with 6 samples.

Results

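The genes described here encode the machinery that marks replication origins and licenses them: the 6 subunits of the origin recognition complex (ORC1 to ORC6), the loading factors CDC6 and CDT1, and geminin (GMNN), the inhibitor of CDT1. They were chosen by name and with earlier results of these data known, as 9 genes among the 13161 in the deposited tables. Of the 9, 8 were listed at all 3 times of the study, as were 11886 genes in all. ORC4 had rows at 3 and 12 h only. Transcripts were measured in U2OS cells, an established human osteosarcoma line, transfected with siRNAs that target E2F7 (siE2F7) or with non-target siRNAs as control (siNT). E2F7 belongs to the atypical E2Fs, which bind DNA without a DP partner and repress genes that other E2Fs activate. Cells of both arms had been held in 4 mM hydroxyurea for 24 h and were sampled 0, 3 and 12 h after its removal, equated in the study with the G1/S transition at 0 h, S phase at 3 h and the G2/M boundary at 12 h. The groups were thus siE2F7 at 0, 3 and 12 h and siNT at 0, 3 and 12 h, with 1 library each, so the arms could be compared over the 3 times but no single time had a replicate. Neither the siRNA sequences nor the origin of the 3 times, from 1 culture or several, is given in the sources used here. P-values therefore rest on how far the ratio of the arms varied over the 3 times and on the spread of genes of like level. They do not measure a spread between replicates of a time, and the spread used may be technical.

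Licensing begins when ORC, an ATPase complex, binds origin DNA and recruits CDC6, an ATPase related to ORC1. CDT1 then brings the MCM2-7 helicase, which is closed around DNA as an inactive double ring. From S to M phase human cells keep licensing shut by several means, which need not all act in each phase. These are the destruction of CDT1 through ubiquitin ligases, CDK activity, and geminin, which binds CDT1 and is itself destroyed at the end of mitosis. CDC6, CDT1 and ORC1 are textbook E2F target genes, whereas most other ORC subunits are known for nearly constant levels through the cycle.

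The sequences before the starts of ORC1, CDC6, CDT1 and GMNN are shown because these are the 4 genes whose transcripts differed between the arms, and because E2F factors bind promoters through short GC-rich words. All 9 genes matched the RefSeq promoter table (GRCh38.p14), with 11 windows of 300 bases in all, each from 250 bases before to 50 bases after a start. The stretches run from 150 bases before to 30 after the start, read along the strand of the gene. Capitals mark the E2F words TTTCCCGC, TTTCGCGC, TTTGCCGC and TTTGGCGC on either strand, and the shorter word TTGGCG, which lies inside the last of these and was chosen after the windows had been seen.
ORC1, chr1:52404394-52404573, minus strand: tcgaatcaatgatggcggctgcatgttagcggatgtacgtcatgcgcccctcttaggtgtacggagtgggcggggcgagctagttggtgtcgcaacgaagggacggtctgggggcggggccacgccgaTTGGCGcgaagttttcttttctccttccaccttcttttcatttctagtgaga
CDC6, chr17:40287729-40287908, plus strand: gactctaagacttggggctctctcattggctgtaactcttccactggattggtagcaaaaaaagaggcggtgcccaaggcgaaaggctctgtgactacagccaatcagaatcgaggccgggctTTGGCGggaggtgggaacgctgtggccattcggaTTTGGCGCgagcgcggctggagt
CDT1, chr16:88803639-88803818, plus strand: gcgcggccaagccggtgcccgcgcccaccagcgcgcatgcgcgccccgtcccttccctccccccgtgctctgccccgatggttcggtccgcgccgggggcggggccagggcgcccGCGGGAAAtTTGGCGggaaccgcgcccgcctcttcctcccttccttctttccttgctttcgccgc
GMNN, second start, chr6:24775263-24775442, plus strand: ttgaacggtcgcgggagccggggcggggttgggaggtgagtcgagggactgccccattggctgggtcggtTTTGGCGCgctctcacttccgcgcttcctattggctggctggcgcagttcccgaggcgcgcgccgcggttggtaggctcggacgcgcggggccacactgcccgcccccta

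At least 1 of the E2F words stood in a 300-base window of 4 of the 9 genes, ORC3, CDC6, CDT1 and GMNN, and in 3.31% of all 35116 windows of the table. The CDC6 word began at position 8 after the start, the CDT1 word at position -35 and the GMNN word at position -80, in the second of its 2 windows. The word TTGGCG was found for 5 genes, ORC1, ORC6, CDC6, CDT1 and GMNN, and in 8.92% of all windows. Because it was chosen after the windows had been seen, these figures cannot show an excess. Counts of genes are also not shares of windows, since the 9 genes had 11 windows. GMNN, the member called lower in siE2F7, held an E2F word and TTGGCG in its second window, as CDC6 and CDT1 did in theirs. The first GMNN window held none of the words searched. The CCAAT word was in the windows of 6 genes and 34.6% of all windows, and CCAAT and TTGGCG share letters in ORC1. The word TTTGAA of the cell cycle homology region, known from genes of G2 and M phases, was in the windows of none of the 9 genes and in 15.2% of all windows. Such matches describe letters only, and no binding was measured.

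The values are FPKM as deposited, fragments scaled to transcript length and to the mapped fragments of the library, and their sum per library lay between 351305 and 375954. Without read counts the sequencing depth of each library cannot be given. E2F7 stood at 9.48, 10.6 and 5.52 FPKM in siE2F7 at 0, 3 and 12 h, against 20.3, 29.4 and 16.6 FPKM in siNT, so part of its transcript was left at every time. Of 10 osteoblast lineage markers 6 were listed at all times, with a summed level of 688 to 844 FPKM in siE2F7 and 806 to 943 FPKM in siNT; COL1A2, SP7, BGLAP and IBSP had no row. Of 3 blood markers only LAPTM5 was listed (0.937 to 1.79 FPKM in siE2F7, 1.64 to 2.47 in siNT), and of 2 endothelial markers neither was. Of 4 epithelial markers 3 were listed at all times, summing to 199 to 221 FPKM in siE2F7 and 238 to 299 FPKM in siNT. The summed level of 6 mitosis genes was 251, 283 and 845 FPKM in siE2F7 at 0, 3 and 12 h, against 286, 304 and 714 FPKM in siNT. In such bulk libraries a different share of cells in a phase and a different amount of RNA per cell cannot be told apart, and the part of this marker shift in the results below was not tested.

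Of the 8 genes listed at all times, ORC1, CDC6 and CDT1 rose in siE2F7 and GMNN fell, while ORC2, ORC3, ORC5 and ORC6 did not pass the test. Among all 11886 genes 6.76% were called higher and 7.13% lower at an adjusted p under 0.05 (limma, with the 3 times as blocks, two-sided, Benjamini-Hochberg over all genes). All log2 changes below are siE2F7 over siNT on log2(FPKM + 0.1). The 8 genes had a median log2 change of 0.20, against -0.031 for all genes.

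**Figure D1:**
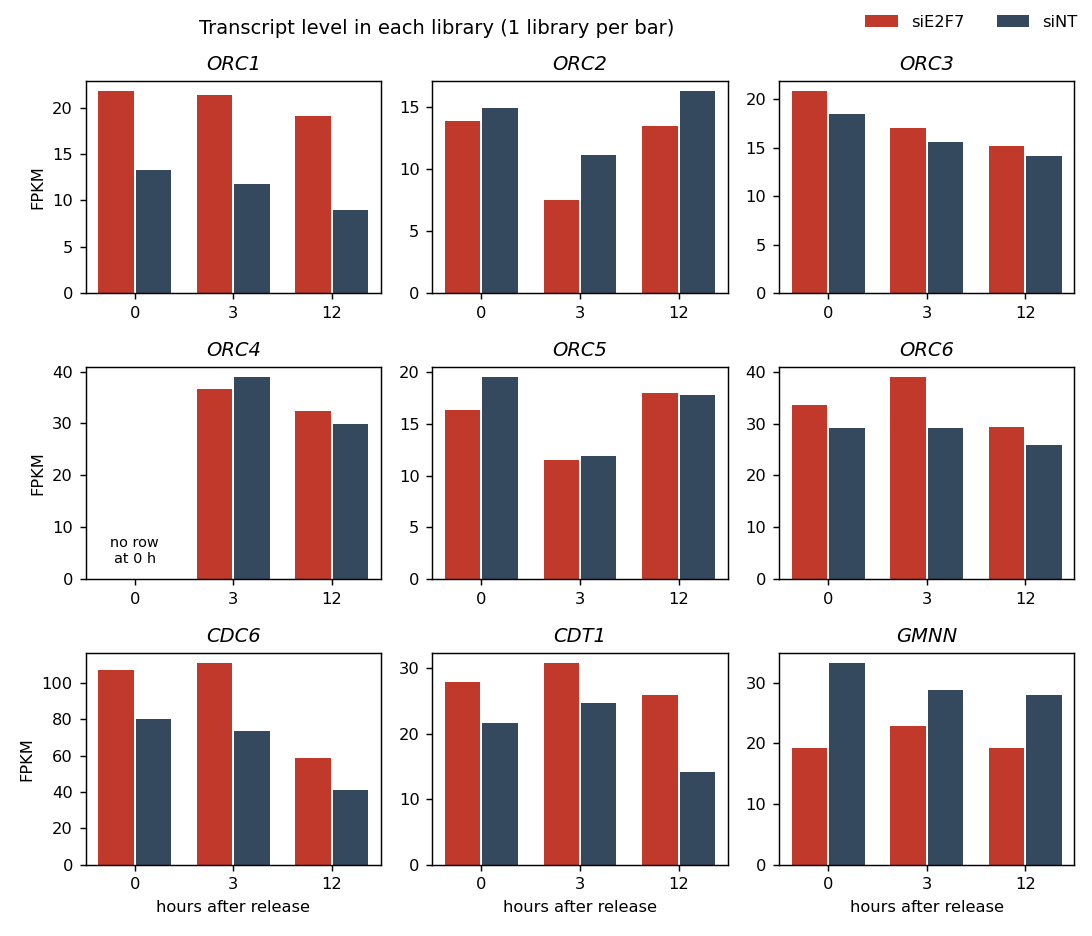
FPKM of each of the 9 genes (vertical axis, its own scale per gene, from 0) at 0, 3 and 12 h after release (horizontal axis), with siE2F7 left of siNT and 1 library per bar. ORC1, CDC6 and CDT1 stand higher and GMNN lower in siE2F7 at each time, and ORC2 and ORC5 are lowest at 3 h in both arms.

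ORC1, the largest ORC subunit and in human cells the one degraded during S phase, lies on chromosome 1 (52838501 to 52870143, hg19, as are all gene positions here). It stood at 21.8, 21.3 and 19.1 FPKM in siE2F7 at 0, 3 and 12 h, against 13.2, 11.8 and 8.95 FPKM in siNT. The siE2F7 library was the higher at every time. The log2 change was 0.88 ± 0.09 (SE, 3 pairs; limma, adjusted p = 0.00228), which is 1.84-fold, and was larger than the change of 99.0% of all genes. The fold at single times was 1.64, 1.81 and 2.13 at 0, 3 and 12 h.

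The other subunits showed smaller differences. ORC6, the subunit least related to the others in sequence (chromosome 16, 46723558 to 46732306), was at 33.6, 39.0 and 29.3 FPKM in siE2F7 and at 29.1, 29.2 and 25.9 FPKM in siNT at the same times. Its siE2F7 library was the higher at every time, and its log2 change of 0.27 ± 0.08 had an adjusted p of 0.0557 (limma). After quantile normalization the adjusted p was 0.0429, and after centring each library on its median it was 0.0407, so the call of ORC6 turned on the scaling.

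ORC2, a core subunit that binds ORC3 (chromosome 2, 201774894 to 201828424), was at 13.9, 7.53 and 13.4 FPKM in siE2F7, against 15.0, 11.1 and 16.3 FPKM in siNT at 0, 3 and 12 h. It was lower in siE2F7 at each time, with a log2 change of -0.31 ± 0.10 that did not pass (limma, adjusted p = 0.0795). ORC3, its partner (chromosome 6, 88299785 to 88377172) was at 20.8, 17.0 and 15.2 FPKM in siE2F7 and at 18.5, 15.6 and 14.1 FPKM in siNT. Its log2 change was 0.13 ± 0.07 (limma, adjusted p = 0.243).

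ORC5 (chromosome 7, 103766788 to 103848495), an ATPase subunit, was at 16.3, 11.5 and 18.0 FPKM in siE2F7 and at 19.6, 11.9 and 17.8 FPKM in siNT, with a log2 change of -0.10 ± 0.08 (limma, adjusted p = 0.458). ORC4, another subunit of the ATPase type, was at 36.6 and 32.4 FPKM in siE2F7 at 3 and 12 h, against 39.0 and 29.8 FPKM in siNT. The arms thus lay close together, in opposite order at the 2 times. In a fit that let in genes with 2 of the 3 times, its log2 change was 0.015 ± 0.093 (limma, adjusted p = 0.934). The locus given for ORC4 (chromosome 2, 148602570 to 149271044) overlaps that of ACVR2A, and reads may have been split between them; the other 8 genes share no locus with another entry.

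CDC6, an ATPase that binds ORC at origins before the helicase is loaded, lies on chromosome 17 (38444146 to 38459413). Its level was 107, 111 and 58.9 FPKM in siE2F7 at 0, 3 and 12 h, against 80.1, 73.7 and 40.8 FPKM in siNT. At each time the siE2F7 library was the higher, though the ranges of the arms overlapped because both were lowest at 12 h. The log2 change was 0.51 ± 0.07 (SE, 3 pairs; limma, adjusted p = 0.00418), or 1.42-fold, with folds of 1.33, 1.51 and 1.44 at the single times.

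CDT1, the factor that carries the helicase to the origin and the target of geminin, lies on chromosome 16 (88870186 to 88875666). It was at 27.9, 30.8 and 25.9 FPKM in siE2F7, against 21.7, 24.6 and 14.2 FPKM in siNT. At each time the siE2F7 library was the higher. The log2 change was 0.51 ± 0.11 (limma, adjusted p = 0.0251). The 12 h pair contributed most: the fold was 1.29 at 0 h, 1.25 at 3 h and 1.82 at 12 h, and without the 12 h libraries the log2 change was 0.34 (limma, adjusted p = 0.0411). Whether the folds differed between times was not tested, since each rests on 1 pair.

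GMNN, on chromosome 6 (24775159 to 24786325), was at 19.3, 22.9 and 19.2 FPKM in siE2F7 at 0, 3 and 12 h, against 33.3, 28.9 and 28.0 FPKM in siNT. At each time the siE2F7 library was the lower. The log2 change was -0.55 ± 0.09 (SE, 3 pairs; limma, adjusted p = 0.0106), which is 0.681-fold, and only 3.6% of all genes had a lower one. The ratio was 0.579 at 0 h, 0.794 at 3 h and 0.685 at 12 h. The calls of GMNN and CDT1 were lost without a variance trend (limma, adjusted p = 0.0503 and 0.0813), and all 4 calls of the members were lost without the time block.

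**Figure D2:**
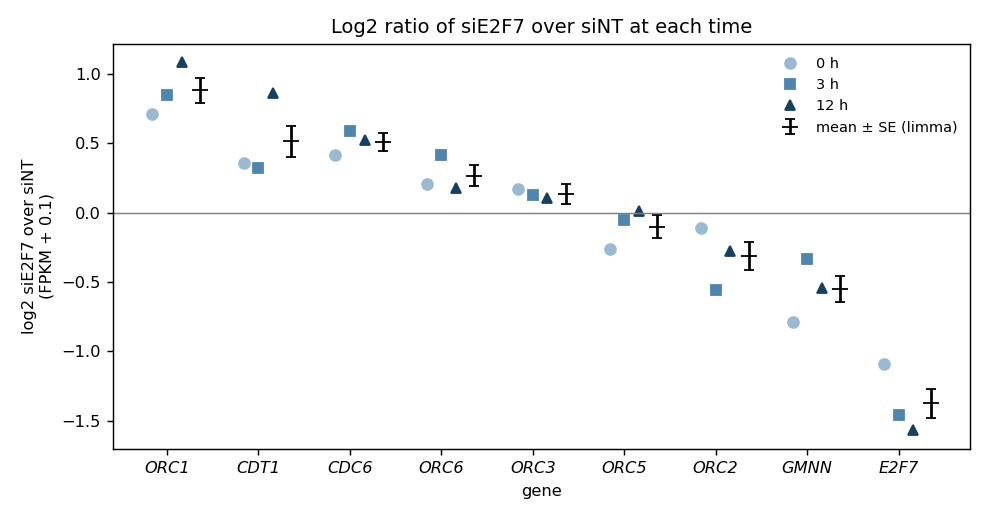
Log2 ratio of siE2F7 over siNT on log2(FPKM + 0.1) (vertical axis) for the 8 genes listed at all times and for E2F7 (horizontal axis); coloured points are the 0, 3 and 12 h pairs and black bars the mean ± SE of limma. The 3 points of ORC1, CDC6 and CDT1 lie above 0, those of GMNN and E2F7 below it, and those of ORC5 on both sides.

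At single times, 1 library was set against 1 and differences are given without a test. At 0 h, 1 of the 8 genes was at least 1.5-fold higher in siE2F7 (ORC1) and 1 at least 1.5-fold lower (GMNN), against 2.70% and 4.40% of all genes. At 3 h, ORC1 and CDC6 were at least 1.5-fold higher and 0 of the 8 lower, against 3.90% and 3.90% of all genes. At 12 h, ORC1 and CDT1 were at least 1.5-fold higher and 0 of the 8 lower, against 5.07% and 6.58% of all genes. The median log2 ratio of the 8 genes was 0.19, 0.22 and 0.14 at 0, 3 and 12 h.

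CDT1 over its inhibitor GMNN, CDC6 over GMNN and ORC1 over ORC2 were compared as ratios of FPKM within each library. CDT1 over GMNN was 1.45, 1.35 and 1.35 in siE2F7 at 0, 3 and 12 h, against 0.651, 0.854 and 0.507 in siNT. CDT1 transcript was thus the more abundant per length in each siE2F7 library and GMNN in each siNT library. The mean log2 difference between the arms was 1.07 ± 0.38 (SD, 3 pairs), or 2.10-fold. CDC6 over GMNN was 5.54, 4.85 and 3.07 in siE2F7, against 2.41, 2.55 and 1.46 in siNT, with a mean log2 difference of 1.07 ± 0.14 (SD, 3 pairs). ORC1 over ORC2 was 1.57, 2.83 and 1.42 in siE2F7, against 0.886, 1.06 and 0.550 in siNT, with a mean log2 difference of 1.20 ± 0.33 (SD, 3 pairs). Each of the 3 ratios was higher in siE2F7 at all 3 times, and the two-sided exact paired permutation test gave p = 0.25 for each, the smallest value that 3 pairs allow. These ratios are built from genes already described, so they are not independent of the changes above.

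**Figure D3:**
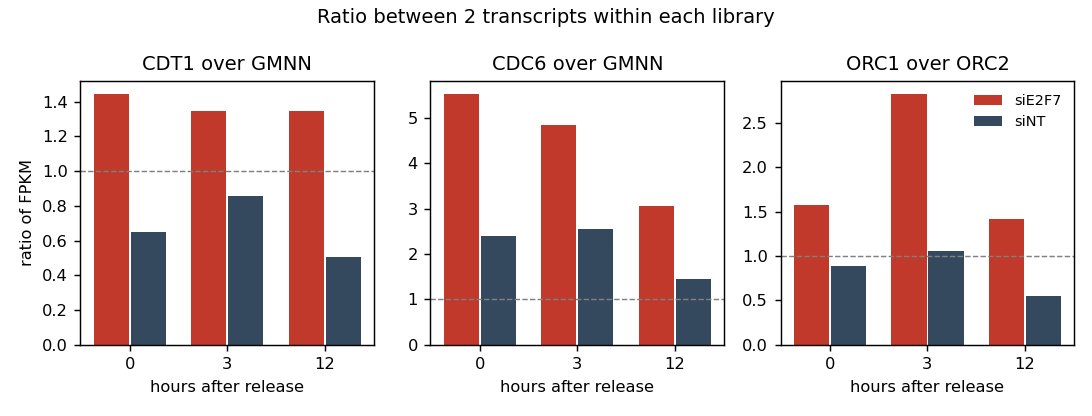
Ratio of the FPKM of 2 transcripts in the same library (vertical axis, from 0) at 0, 3 and 12 h (horizontal axis), siE2F7 left of siNT, 1 library per bar; the dashed line marks equal FPKM. CDT1 over GMNN lies above the line in each siE2F7 library (1.35 to 1.45) and below it in each siNT library (0.507 to 0.854).

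Levels per length differed widely among the 9 genes. In siE2F7 the order of mean FPKM was CDC6 (92.2), ORC4 (34.5, over 2 libraries), ORC6 (34.0), CDT1 (28.2), ORC1 (20.7), GMNN (20.4), ORC3 (17.7), ORC5 (15.3) and ORC2 (11.6). In siNT it was CDC6 (64.9), ORC4 (34.4, over 2 libraries), GMNN (30.04), ORC6 (28.1), CDT1 (20.2), ORC5 (16.4), ORC3 (16.1), ORC2 (14.1) and ORC1 (11.3). The ranges of neighbours overlapped in both orders, except between CDC6 and ORC4 in each arm, between CDT1 and ORC1 in siE2F7 and between ORC6 and CDT1 in siNT. ORC1 was the least abundant of the 9 on average in siNT and the fifth in siE2F7, while GMNN was the third in siNT and the sixth in siE2F7. CDC6 had a higher mean over the 6 libraries than 93.3% of all genes, and the other 7 genes with full rows than 54.6% to 79.7%.

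Across time the values are set side by side without a test, since the labels do not say whether the tables of the 3 times were scaled together. CDC6 was 0.552-fold at 12 h relative to 0 h in siE2F7 and 0.510-fold in siNT. CDT1 was 0.928-fold at 12 h relative to 0 h in siE2F7, against 0.655-fold in siNT, and ORC1 was 0.877-fold in siE2F7, against 0.675-fold in siNT. ORC2 and ORC5 had another course, being lowest at 3 h in both arms. At 3 h relative to 0 h ORC2 was 0.543-fold in siE2F7 and 0.743-fold in siNT, and ORC5 was 0.705-fold in siE2F7 and 0.611-fold in siNT. The highest library of an arm was 1.33-fold the lowest for ORC6 in siE2F7 and 1.13-fold in siNT, and 1.19-fold for GMNN in each arm. The median of all genes moved by -0.10 to 0.04 on the log2 scale between times.

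Over the 6 libraries, ORC2 and ORC5 had the most similar profiles among the 8 genes by distance (Euclidean, 0.429 between centred log2 profiles), followed by ORC3 and ORC6 (0.437). The Pearson correlation was 0.879 for ORC2 and ORC5 but 0.545 for ORC3 and ORC6, and was highest for ORC1 and CDT1 (0.887). A small distance thus did not always go with a high correlation. By distance the least similar were ORC2 and CDC6 (1.90) and ORC1 and GMNN (1.79). Outside the family, the genes nearest to CDC6 were PHLPP1, ARNT2 and CDKN1A, at distances of 0.141, 0.142 and 0.149. Those nearest to CDT1 were SGK3, CLGN and PHTF2, at 0.156, 0.163 and 0.19, where SGK3 shares a locus with another entry. SLC25A40, CARHSP1 and DCK, a deoxynucleoside kinase of the salvage pathway, were nearest to ORC1, at 0.119, 0.138 and 0.148, and SLC25A40 shares a locus with DBF4. DHRS4, LGMN and TIMP2 were nearest to GMNN, at 0.122, 0.127 and 0.183, and DHRS4 shares a locus with another entry. The search covered genes averaging 1 FPKM or more, and with 6 libraries close profiles are a description only.

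Other genes of the pathway were grouped by role, 40 in all, of which 39 were listed at all times. Of these 20 rose, 1 fell and 18 did not pass, against 6.76% higher and 7.13% lower among all genes. The lists were chosen with earlier results of these data known, so such counts cannot show an excess. The same shares of all genes apply to each list below. All 7 genes of the helicase list rose, with a median log2 change of 1.19. The highest were MCM6 (2.27 ± 0.21) and MCM5 (1.82 ± 0.14), and the lowest were MCM7 (0.60 ± 0.09), whose locus is shared with other entries, and MCMBP, a protein that binds MCM subunits (0.40 ± 0.07; SE; limma, adjusted p = 0.00972). ORC1, the member with the largest change, had a smaller one (0.88) than 4 of these 7 genes. Whether the lists differ from one another was not tested.

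Of 10 firing factors 6 rose and 0 fell. At an unadjusted p under 0.05 (limma), 9 were higher and 0 lower. The share of all genes under that unadjusted limit was not counted, here or for the lists below. Without that share, the unadjusted counts cannot show an excess. The firing factors had a median of 0.38, and the highest were GINS2 (1.56 ± 0.13) and CDC45 (1.13 ± 0.10), parts of the active helicase. The lowest were GINS4 (0.21) and DBF4 (0.17, a locus shared with SLC25A40), which did not pass (limma, adjusted p = 0.103 and 0.212). Of 6 CDKs and cyclins, listed for the part of CDK activity in licensing control, 4 rose and 0 fell, with a median of 0.42. At an unadjusted p under 0.05 (limma), 5 were higher and 0 lower. The E cyclins CCNE2 (1.55 ± 0.14, a locus shared with INTS8) and CCNE1 (1.05 ± 0.08) were highest, and CDK1 (0.26) and CCNB1 (-0.034) did not pass.

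The list of ubiquitin ligases that act on CDT1, CDC6 or ORC1 held 12 genes, PCNA included as the clamp on which CDT1 is marked. Of these 2 rose, 1 fell and 9 did not pass, against 6.76% higher and 7.13% lower among all genes. Their median was 0.065. PCNA (1.10 ± 0.14, with an antisense entry at its locus) and DTL, which recognises CDT1 for destruction (0.30 ± 0.07, adjusted p = 0.0262; a locus shared with INTS7), rose. CUL4A, a scaffold of the same ligase, fell by 0.31 on the log2 scale (SE 0.07, limma, adjusted p = 0.0261). CUL4B, of the same list, had a log2 change of 0.12 (limma, adjusted p = 0.389). SKP1, of the SCF ligase, had a log2 change of -0.10 (limma, adjusted p = 0.461), and SKP2, which binds CDT1 for that ligase, one of -0.050 (limma, adjusted p = 0.689). Of 4 partners of ORC and of loading 1 rose, SETD8, a histone H4 methyltransferase (0.37 ± 0.08; limma, adjusted p = 0.0258). GRWD1 and KAT7 had log2 changes of 0.29 and 0.070, and LRWD1, which binds ORC and has POLR2J at its locus, one of -0.012 (limma, adjusted p = 0.0563, 0.552 and 0.935).

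**Figure D4:**
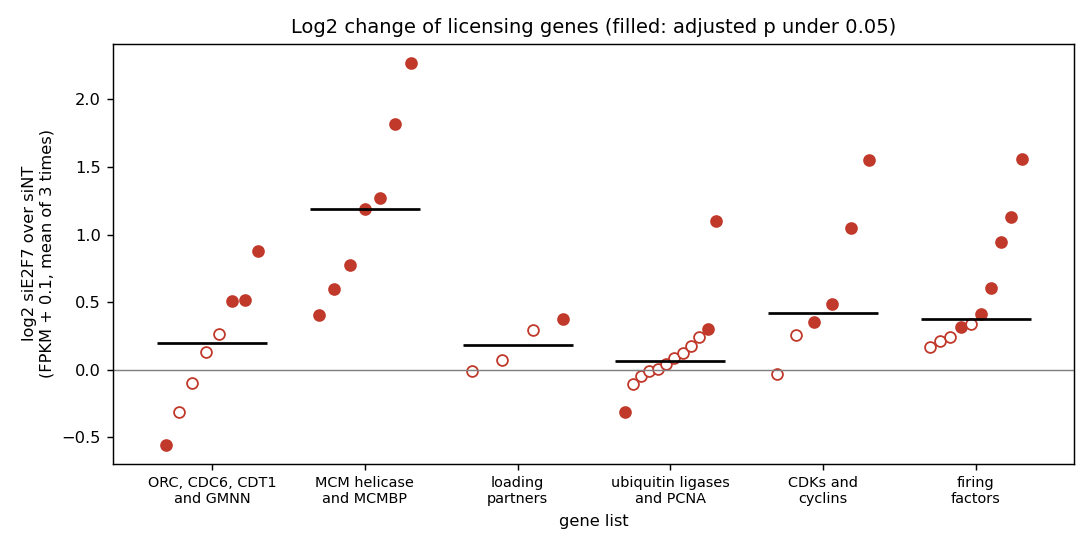
Log2 change of siE2F7 over siNT across the 3 times (vertical axis) for the 8 members listed at all times and the 39 other licensing genes, by list (horizontal axis); each point is a gene, filled where the adjusted p was under 0.05, and the bar is the median of the list. The members run from -0.55 (GMNN) to 0.88 (ORC1), and the helicase list has the highest median (1.19).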

How the data were processed

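RNA of 6 U2OS libraries, 1 per arm and time, was extracted with TRIzol and RNeasy and sequenced from Illumina TruSeq libraries, per the labels' protocols. The authors deposited FPKM per gene, in tables laid out like Cuffdiff output per the file headers. CASAVA 1.8 and hg19 (GRCh37) are named in the submitters' processing notes; which aligner, annotation or filter was used is not given in the sources used here. Loci in the files start from 0 and are printed from 1. No counts were available, so no counting error is given.

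Tables were joined on their identifiers. The arms were compared in R 4.3.3 by limma 3.58.1, fitted to log2(FPKM + 0.1) with terms for time and arm, a variance trend and Benjamini-Hochberg adjustment over 11886 genes at 0.05 (2 residual and 5.4 prior degrees of freedom). The fit was run on data simulated from the fitted model with independent errors. Such a run cannot check whether the errors of these libraries are of that kind. The pseudocount understates changes of low genes. Ratios between members were compared with an exact paired permutation test. Alternatives were other pseudocounts, scalings, filters and error models, and leaving out each time. Motifs were searched on both strands of the RefSeq windows of GRCh38.p14. The text names every member, E2F7, the 2 highest and 2 lowest changes of each pathway list, and the 3 genes nearest in profile to CDC6, CDT1, ORC1 and GMNN. SKP2 and CUL4B were named beyond that after their values were seen. The members, lists and tests were chosen with earlier results of these data known.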

Additional observations from a re-analysis of the deposited data

Results flagged for a closer look

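ORC5 and ORC4 were marked because their libraries moved in opposite directions at different times; that difference between times was not tested, and each value rests on 1 pair. The log2 ratio of siE2F7 over siNT for ORC5 was -0.26 at 0 h, -0.053 at 3 h and 0.011 at 12 h. For ORC4 it was -0.090 at 3 h and 0.12 at 12 h.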

How the results depend on the processing

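The members were refitted under 11 alternatives, 10 of them planned and 1, which let in genes listed at only some times, added after the data had been seen; none turned the direction of a member. Of all genes 803 were called higher and 847 lower. Leaving out the libraries of 1 time gave 332 to 557 higher and 431 to 560 lower, the lowest without 3 h, while 3 members were called higher and 1 lower each time. Without the variance trend 400 genes were called higher and 452 lower, with 2 and 0 of the members (4 and 2 at an unadjusted p under 0.05 by limma). Without the time block the counts were 15 and 17 genes and 0 and 0 members (2 and 1 at an unadjusted p under 0.05 by limma). The share of all genes under the unadjusted limit was not counted in either fit, so the unadjusted counts cannot show an excess. At single times a 2-fold limit left 87, 116 and 172 genes higher and 104, 99 and 204 lower at 0, 3 and 12 h, with 0, 0 and 1 member higher and 0 lower at 0 h. With a pseudocount of 1 the lower genes past 1.5-fold numbered 332 at 0 h and 276 at 3 h, against 523 and 463. The ratio differences between arms ranged from 0.90 to 1.28 for CDT1 over GMNN, 0.999 to 1.14 for CDC6 over GMNN and 1.10 to 1.39 for ORC1 over ORC2 when 1 time was left out. The labels carry no replicate numbers, and the arms were paired by time alone. The test meant for counts was not run, since the files hold FPKM.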
